A study of Mus musculus with 6 samples.

Results

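Platelets are triggered by a small set of surface receptors for thrombin, nucleotides and prostanoids, and their genes were followed here in the bone marrow progenitors from which platelets ultimately arise. The set held 10 genes: the protease-activated receptor genes F2r, F2rl1, F2rl2 and F2rl3, the purine receptor genes P2rx1, P2ry1, P2ry12 and Adora2a, and the prostanoid receptor genes Tbxa2r and Ptgir. A gene entered when a probe set carried its symbol alone in the array annotation. This gave 8 of the 10 genes, each with 1 probe set, of 22180 genes named on the array. F2rl1 and Adora2a were not analysed here. The genes were chosen as platelet agonist receptors, and F2rl3 and P2rx1 were picked also because they read lower in the knockout. Their differences are therefore given as a description, with no test.

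The RNA came from megakaryocyte-erythroid progenitors (MEP), the common precursors of red cells and of the megakaryocytes that shed platelets, sorted by flow cytometry from fresh marrow. The 3 knockout arrays held MEP of C57BL/6 mice that lack T-bet, a transcription factor best known from T helper and natural killer cells and encoded by Tbx21. The 3 wild-type arrays held MEP of C57BL/6 mice, and per the labels each array is a different mouse. The labels give no age or sex, no treatment other than the antibody staining for the sort, and no tissue restriction of the knockout.

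Some facts of the arrays bear on every value below. Array medians lay between 6.44 and 6.53 on the log2 scale, and any pair of arrays correlated across probe sets at r = 0.980 to 0.987. Tbx21 itself read 6.41, 6.60 and 6.46 in knockout MEP and 6.54, 6.62 and 6.60 in wild-type MEP, and the groups overlapped, so it gave no check of the genotype labels. Signals of Xist, the RNA of the inactive X chromosome, and of Y-linked genes were present together on 3 of the 6: wild-type replicate 1 and the first and second knockout replicates. The Y-linked signal stood alone on knockout replicate 3 and wild-type replicate 3, and the Xist signal alone on wild-type replicate 2. Whether the 3 mixed arrays each hold a single mouse was not tested, and p-values measure the spread between these 6 arrays. Of the 13 listed genes of the MEP gate 12 were measured, 0 of them dim. Gata1, the erythroid and megakaryocytic transcription factor gene, read 10.97 ± 0.03 in knockout MEP and 10.96 ± 0.05 in wild-type MEP, and Kit, the stem cell factor receptor gene, 11.95 to 12.07 over the 6 arrays. Genes of cells that an MEP gate leaves out were not all dim: Il7r, the interleukin 7 receptor gene of lymphoid precursors, read 7.61 ± 0.48 in knockout MEP and 7.12 ± 0.56 in wild-type MEP, up to 8.05 on knockout replicate 3, and the stem and progenitor gene Cd34 read 6.43 to 7.27.

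Thrombin cleaves the outer end of a protease-activated receptor, and the new end folds back and activates the receptor. On mouse platelets F2rl3 (PAR4) carries the thrombin signal, with F2rl2 (PAR3) as its helper, whereas F2r (PAR1) serves this role on human platelets. ADP acts through P2ry1, which couples to calcium release, and P2ry12, which lowers cyclic AMP, while ATP opens the channel P2rx1. Thromboxane A2 activates platelets through Tbxa2r; prostacyclin and adenosine restrain them through Ptgir and Adora2a by raising cyclic AMP. All but P2rx1, an ion channel, are G protein-coupled receptors.

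The 3 measured protease-activated receptor genes had lower mean signals in the knockout, and F2rl3 was the one whose groups separated. F2rl3 read 7.02, 7.12 and 7.10 in knockout MEP (values are in the order of replicates 1 to 3, here and below) and 7.35, 7.37 and 7.40 in wild-type MEP. Every knockout value lay below every wild-type value, with a gap of 0.23 between the groups. The knockout mean was 7.08 ± 0.05 and the wild-type mean 7.37 ± 0.03 (SD, n = 3), a difference of -0.29 on the log2 scale, so that the knockout stood at 81.6% of the wild-type signal. When each array was left out in turn the difference lay between -0.31 and -0.26. In such bulk samples fewer cells of a type and less RNA per cell cannot be told apart.

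F2r, the thrombin receptor PAR1, read 10.35, 10.12 and 10.33 in knockout MEP and 10.48, 10.35 and 10.61 in wild-type MEP. The groups touched: knockout replicate 1 lay just above wild-type replicate 2. The difference was -0.21 (SE 0.12, 95% interval -0.49 to 0.07, limma adjusted p = 1). In terms of signal, the knockout stood at 86.4% of wild type, with bounds of 71.4% and 105%.

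F2rl2, the helper receptor PAR3, read 7.09, 6.99 and 7.35 in knockout MEP and 7.44, 7.24 and 7.50 in wild-type MEP. The first and second knockout replicates lay below all wild-type arrays, and knockout replicate 3 lay above wild-type replicate 2. Its difference was -0.25 (SE 0.13, 95% interval -0.56 to 0.06, limma adjusted p = 1). In RefSeq's gene order F2rl1, F2r, Iqgap2 and F2rl2 follow each other on chromosome 13, with F2rl2 lying inside Iqgap2, a scaffold protein gene. Iqgap2, looked at after its position was seen, read 11.09 ± 0.03 in knockout MEP and 11.07 ± 0.03 in wild-type MEP, a difference of 0.02 (SE 0.08). Whether the F2rl2 probe set also reads Iqgap2 transcripts was not tested.

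The sequences just upstream of these 3 genes are shown because the genes share a direction of difference. Each window holds the 250 bases before the start listed by RefSeq in the GRCm38.p6 build, read 5′ to 3′ in the direction of the gene. Capitals mark matches to any of 5 short motifs searched on both strands. The core of T-box sites was written GGTGTGA, and the letters taken for GATA factors were AGATAA. For the ETS family the search used GGAAG, for RUNX factors it used TGTGGT, and for NF-E2 it used TGANTCA. Adjoining capitals can hold more than 1 match.
F2r promoter, chr13:95618467-95618716, reverse strand: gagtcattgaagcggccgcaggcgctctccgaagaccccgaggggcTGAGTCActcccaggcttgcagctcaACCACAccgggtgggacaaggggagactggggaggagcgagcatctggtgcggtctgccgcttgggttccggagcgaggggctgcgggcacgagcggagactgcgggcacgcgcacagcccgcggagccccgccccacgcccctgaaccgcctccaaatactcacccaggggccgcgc
F2rl2 promoter, chr13:95696670-95696919, forward strand: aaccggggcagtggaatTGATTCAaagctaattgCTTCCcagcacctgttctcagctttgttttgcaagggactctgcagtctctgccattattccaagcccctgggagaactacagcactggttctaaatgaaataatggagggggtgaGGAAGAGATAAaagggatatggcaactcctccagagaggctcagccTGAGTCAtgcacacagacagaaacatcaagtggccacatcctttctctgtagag
F2rl3 promoter, chr8:72761409-72761658, forward strand: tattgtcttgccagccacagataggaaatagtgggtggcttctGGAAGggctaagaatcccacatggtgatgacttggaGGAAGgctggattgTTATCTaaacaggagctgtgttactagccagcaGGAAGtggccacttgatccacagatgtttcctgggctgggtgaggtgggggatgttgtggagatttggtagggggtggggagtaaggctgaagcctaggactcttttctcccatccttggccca

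The GATA letters lay in the F2rl3 window, on the reverse strand 157 bases before the start, and in the F2rl2 window 95 bases before the start, directly after an ETS match. F2rl3 also held the ETS letters at 3 places, 207, 171 and 124 bases before the start. The F2r window held none of the GATA or ETS letters, and carried a RUNX match at 178 and an NF-E2 match at 204 bases before the start. F2rl2 held the NF-E2 letters at 233 and 54 bases before the start. Of 32851 promoter windows of the same length, 9.99% held the GATA letters, 64.1% the ETS letters, 14.05% the RUNX letters and 6.75% the NF-E2 letters. The T-box letters stood in 3.33% of all windows and in 0 of the 8 measured receptor genes, which says only that these letters are not in these windows. A match is a run of letters and not a bound site.

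**Figure D1:**
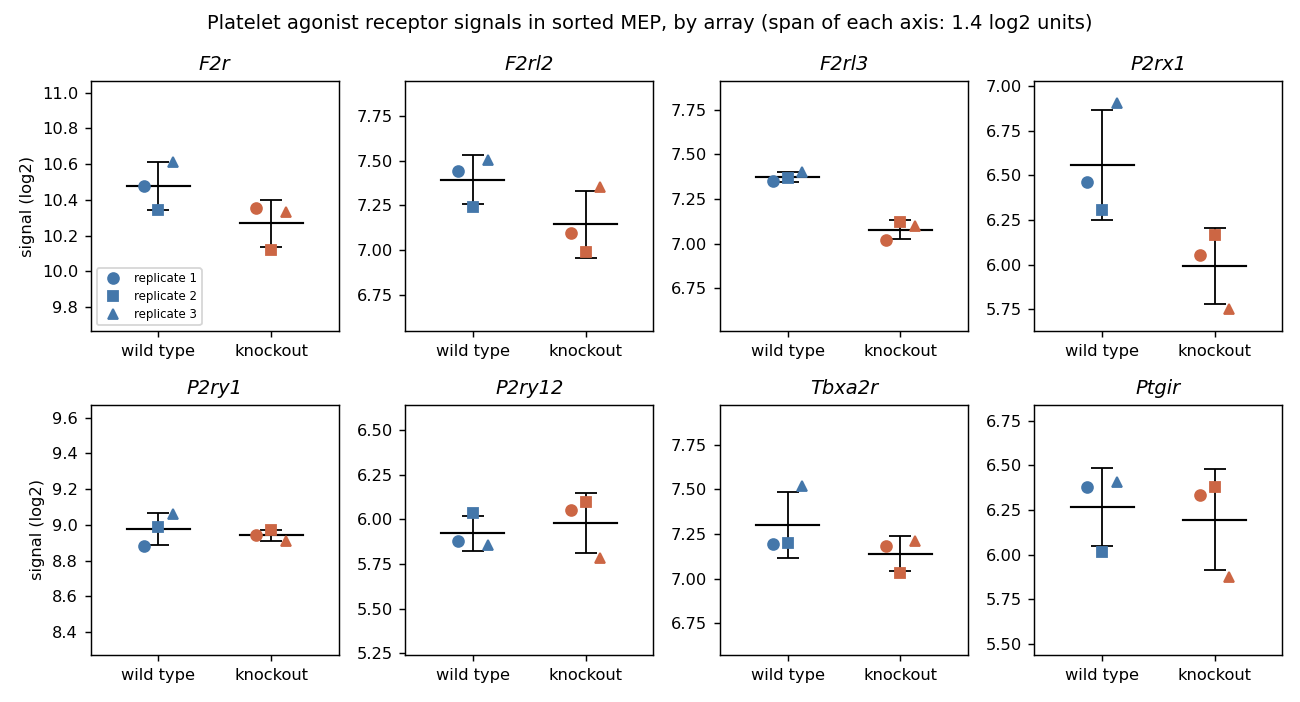
Log2 signal of the 8 measured receptor genes on each array, wild type in blue and knockout in red, with symbols for the replicate number; black lines are the mean and bars the SD of 3 arrays. The F2rl3 and P2rx1 points do not overlap between the groups, with gaps of 0.23 and 0.14, while the points of the other 6 genes do.

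Among the purine receptor genes P2rx1 had the lower signal in the knockout, and the means of P2ry1 and P2ry12 differed by -0.04 and 0.06. P2rx1, the ATP-gated calcium and sodium channel of platelets, read 6.06, 6.17 and 5.75 in knockout MEP and 6.46, 6.31 and 6.90 in wild-type MEP. All 3 knockout values lay below the wild-type values, but the gap was 0.14 and the arrays of each group were spread widely. The means were 5.99 ± 0.21 and 6.56 ± 0.31 (SD, n = 3), a difference of -0.57, or 67.5% of the wild-type signal. Knockout replicate 3 was the lowest and wild-type replicate 3 the highest of the 6. The difference was -0.45 without the former and -0.39 without the latter.

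The window upstream of P2rx1 is shown beside these values, with the same capitals. It is printed as its first 161 bases, since the rest lies within the span RefSeq lists for the gene.
P2rx1 promoter, chr11:72998895-72999055, forward strand: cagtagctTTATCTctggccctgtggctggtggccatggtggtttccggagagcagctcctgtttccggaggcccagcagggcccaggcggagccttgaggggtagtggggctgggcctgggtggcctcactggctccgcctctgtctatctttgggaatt
The whole window held 1 match, the GATA letters on the reverse strand, 242 bases before the start at which the full window ends. That start lies inside the span listed for the gene, so the letters lie nearer to the span's first base. The GATA letters thus stood in the windows of 3 of the 8 measured genes, F2rl2, F2rl3 and P2rx1, against 9.99% of all windows. F2rl3 and P2rx1 were picked also because they read lower, so nothing is read from this count. P2rx1 lies on chromosome 11, which also carries Tbx21.

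P2ry1, the ADP receptor that couples to calcium release, read 8.94, 8.97 and 8.91 in knockout MEP and 8.88, 8.99 and 9.06 in wild-type MEP. The knockout values lay within the wild-type range. The difference was -0.04 (SE 0.09, 95% interval -0.25 to 0.18, limma adjusted p = 1), so these arrays bound the knockout signal between 84.0% and 113% of wild type. It was 0.01 without wild-type replicate 3, and thus of no settled sign.

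P2ry12, the ADP receptor blocked by clopidogrel, was the measured member with a higher mean in the knockout. Its signals were 6.05, 6.10 and 5.79 in knockout MEP and 5.88, 6.03 and 5.86 in wild-type MEP. Knockout replicate 3 was the lowest of all 6 arrays and knockout replicate 2 the highest. The difference was 0.06 (SE 0.12, 95% interval -0.23 to 0.34, limma adjusted p = 1). P2ry13 and P2ry14, related nucleotide receptor genes close to P2ry12 on chromosome 3, differed by -0.05 (SE 0.19) and -0.06 (SE 0.13).

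The prostanoid receptor genes had overlapping groups. Tbxa2r, the thromboxane receptor, read 7.18, 7.03 and 7.21 in knockout MEP and 7.19, 7.20 and 7.52 in wild-type MEP. Apart from wild-type replicate 3 and the low knockout replicate 2, the values lay close together. The difference was -0.16 (SE 0.12, 95% interval -0.46 to 0.13, limma adjusted p = 1), and -0.05 without wild-type replicate 3.

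Ptgir, the prostacyclin receptor, read 6.34, 6.38 and 5.87 in knockout MEP and 6.38, 6.02 and 6.41 in wild-type MEP. The low values were knockout replicate 3 and wild-type replicate 2, 1 in each group, and the rest lay close together. The difference was -0.07 (SE 0.18, 95% interval -0.50 to 0.35, limma adjusted p = 1). It was 0.09 without knockout replicate 3 and -0.20 without wild-type replicate 2.

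**Figure D2:**
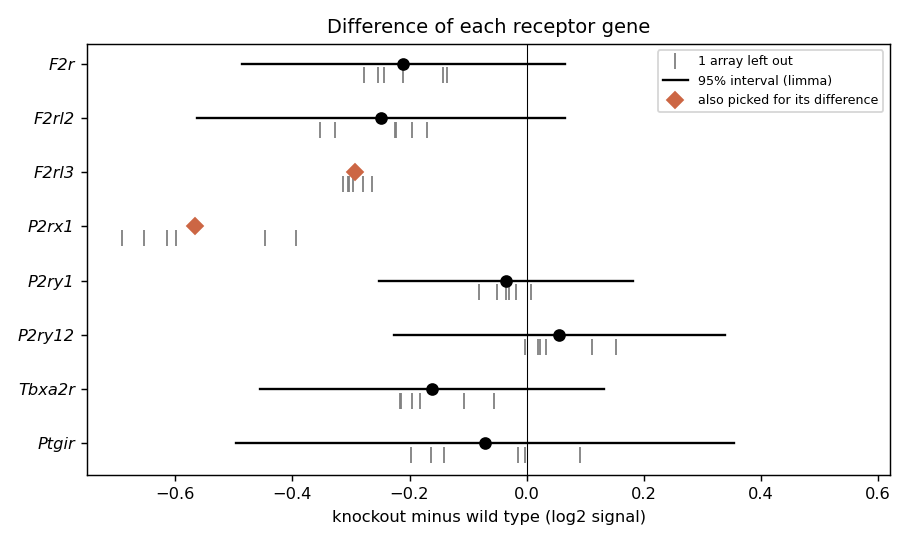
Difference in log2 signal, knockout minus wild type, for the 8 measured receptor genes. Black lines are limma's 95% intervals for the 6 genes not picked for their difference. Red diamonds mark F2rl3 and P2rx1, and grey ticks give the difference with 1 array left out. All 6 intervals include 0, and the ticks of P2ry1, P2ry12 and Ptgir fall on both sides of it.

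Over the set, 7 of the 8 measured genes had a mean difference below 0, against 51.8% of all genes, and the median was -0.19 against -0.0045 over all genes. Both values include F2rl3 and P2rx1, which were picked also because they read lower, so nothing is read from them. For the 6 genes not picked for their difference the count below 0 was 5 and the median -0.12. These 6 too were chosen with earlier results of these data known. Called by limma at an adjusted p of 0.05 were 0 of these 6, where the background was 0% (0 of 41345 probe sets). At an unadjusted p under 0.05 the count was also 0 of 6, against 1.7% of all genes lower and 1.44% higher. Groups that did not overlap, with the knockout lower, were found for 2 of the 8, against 5.18% of all genes (3.52% with the knockout higher, 0 of the 8); these were F2rl3 and P2rx1, which were picked for it, so nothing is read from that count. The 95% intervals of all 6 tested genes lay within 1.5-fold in either direction. These bounds are on signal, and a probe set near background can show less of a difference than the RNA has; 0 of the 8 lay in the dimmest 30% of probe sets.

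The receptor genes were not spread evenly over the arrays. Wild-type replicate 3 held the highest of the 6 values for 7 of the 8 genes, all but P2ry12. Averaged over the 8 genes, the deviation from each gene's mean was 0.22 on that array, 0.07 and -0.0016 on wild-type replicates 1 and 2, and -0.06, -0.08 and -0.15 on knockout replicates 1 to 3. Knockout replicate 3 was the lowest array for P2rx1, P2ry12 and Ptgir, and knockout replicate 2 for F2r, F2rl2 and Tbxa2r. Between the arrays with Y-linked signal alone, knockout replicate 3 and wild-type replicate 3, the differences of F2rl3 and P2rx1 were -0.30 and -1.15.

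Most measured megakaryocyte markers also had lower means in the knockout. Of 20 listed markers 15 were measured, 12 with a difference below 0 and 3 above, with a median of -0.12. Their mean signal was 6.76, 6.71 and 6.95 in knockout MEP and 6.89, 6.84 and 7.07 in wild-type MEP, so the groups overlapped and wild-type replicate 3 was again the highest. Itga2b, the integrin chain CD41, read 7.25, 7.15 and 7.34 against 7.50, 7.41 and 7.86. Trpc6, a cation channel gene, differed by -0.42 (SE 0.13), and the platelet chemokine gene Pf4 by -0.48 (SE 0.21). These 3 genes had the smallest p-values of the list. Gp9 and Gp5, named for their bright signal, differed by -0.02 (SE 0.11) and -0.01 (SE 0.11). On knockout replicate 3 the marker mean stood 0.08 above its mean over the arrays, whereas the receptor genes averaged -0.15 there, their lowest.

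Expressed relative to that marker mean, P2rx1 differed by -0.44 and F2rl3 by -0.17, and P2rx1 alone of the 8 genes kept groups that did not overlap. P2rx1 was picked also because it read lower, so nothing is read from its separation. The share of all genes that separate on this scale is not given here. F2r, F2rl2 and Tbxa2r differed by -0.08, -0.12 and -0.03 on this scale, and P2ry1, P2ry12 and Ptgir by 0.09, 0.18 and 0.06. This scale moves the median of all probe sets by 0.13, and it was chosen after the values were seen. The part of the megakaryocyte markers in the receptor differences was not otherwise tested.

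Several of these receptors are also known from other cells, among them endothelium (F2r, Ptgir), cells of the macrophage lineage (P2ry12) and leukocytes (P2rx1, Ptgir), so markers of those cells were read as well. Endothelial markers were lower in 9 of 12, with a median of -0.07 and mean signals of 6.59 to 6.63 in knockout MEP and 6.66 to 6.80 in wild-type MEP, which did not overlap. Tek, the angiopoietin receptor gene also found on stem cells, differed by -0.46 (SE 0.11), while the defining endothelial gene Cdh5 was dim and differed by 0.05. Stab2, also dim, and Robo4 differed by -0.27 (SE 0.12) and -0.20 (SE 0.09). Groups did not overlap, with the knockout lower, for 5 of the 12, against 5.18% of all genes, and with the knockout higher for 0, against 3.52%. Macrophage markers had mean signals of 5.66 to 5.88 in knockout MEP and 5.76 to 5.86 in wild-type MEP, with 3 of 10 dim. Their differences were below 0 for 6 and above 0 for 4, with a median of -0.07. C1qa, a complement gene of macrophages, differed by -0.31 (SE 0.15). Its values were 6.52, 6.64 and 6.18 in knockout MEP and 6.80, 6.60 and 6.86 in wild-type MEP. The dim macrophage genes C1qc and Cd5l differed by -0.18 (SE 0.11) and 0.15 (SE 0.11).

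Granulocyte and monocyte markers had mean signals of 5.67 to 5.96 in knockout MEP and 5.71 to 5.85 in wild-type MEP, with 6 of 15 dim. B cell markers ran the other way, at 6.57 to 7.10 in knockout MEP and 6.34 to 6.74 in wild-type MEP, highest on knockout replicate 3 and lowest on wild-type replicate 2. T and NK cell markers lay at 5.98 to 6.15 and 6.02 to 6.09, and mast cell and basophil markers at 5.65 to 5.92 and 5.63 to 5.89. Erythroid markers had a median difference of 0.06, with 9 of 12 above 0. The part of these cells in the receptor differences was not tested.

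**Figure D3:**
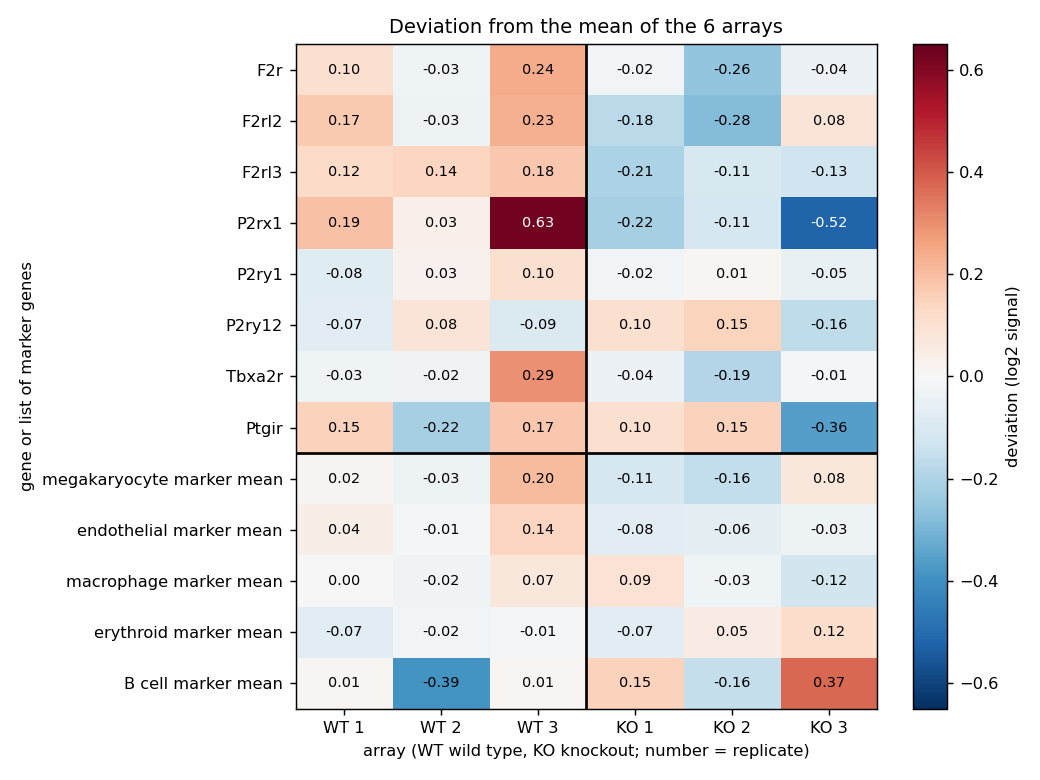
Deviation of each receptor gene, and of the mean of 5 marker lists, from its mean over the 6 arrays, in log2 signal; columns are arrays, red is above and blue below the mean. Wild-type replicate 3 is above the mean for 7 of the 8 genes and for the megakaryocyte marker mean (0.20), and P2rx1 has the widest span, from -0.52 to 0.63.

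The genes that supply the ligands, carry the signals and end them were read from 7 lists. Together the lists held 148 genes besides the members, of which 129 were measured, 83 with a difference below 0 and 46 above, and the median was -0.04. An adjusted p of 0.05 in limma was passed by 0 of 129. At an unadjusted p under 0.05 there were 2 lower and 0 higher, 1.55% and 0%, beside 1.7% and 1.44% of all genes. The lower 2 were Itga2b and Ceacam1, an inhibitory adhesion receptor gene that read 7.44, 7.36 and 7.42 in knockout MEP and 7.62, 7.70 and 7.62 in wild-type MEP.

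Other purine receptor genes, 13 of 15 measured, had 10 differences below 0 and a median of -0.06. The nearest to the threshold were the nucleotide receptor genes P2ry6 and P2ry2 at -0.15 (SE 0.10) and -0.16 (SE 0.13) and the channel gene P2rx6 at -0.22 (SE 0.19). Other prostanoid receptor genes, 5 of 7 measured, had a median of -0.07, with the prostaglandin E2 receptor gene Ptger2 at -0.17 (SE 0.13), the prostaglandin D2 receptor gene Ptgdr at -0.08 (SE 0.11) and the prostaglandin F receptor gene Ptgfr at -0.07 (SE 0.10).

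Genes of ligand supply and removal, 19 of 21 measured, had 13 differences below 0 and 6 above. Thbd, thrombomodulin, which turns thrombin away from clotting, differed by -0.14 (SE 0.08), and Entpd1, the surface enzyme CD39 that degrades ATP and ADP, by -0.17 (SE 0.11). Neither gene's groups overlapped. Ptges3, a prostaglandin E synthase gene, differed by 0.36 (SE 0.23). Tbxas1, thromboxane synthase, named here for its role, differed by -0.25 (SE 0.17).

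Downstream of the receptors, 40 of 44 activating signal transducers were measured, 24 below and 16 above 0, with a median of -0.03. Plcb2, the phospholipase C that releases calcium after receptor activation, read 8.46, 8.23 and 8.40 in knockout MEP and 8.73, 8.52 and 8.56 in wild-type MEP. Its groups did not overlap, and the difference was -0.24 (SE 0.11, unadjusted p = 0.062, limma adjusted p = 1). The kinase gene Prkca and the phosphoinositide kinase adaptor gene Pik3r6 differed by -0.20 (SE 0.10) and -0.16 (SE 0.11). The G protein genes Gnaq, Gna13 and Gnai2, named for their role in coupling these receptors, differed by 0.03 (SE 0.11), -0.04 (SE 0.09) and 0.06 (SE 0.13).

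The cyclic nucleotide arm through which Ptgir acts had 9 of 19 measured genes below 0 and a median of 0.0033. The phosphodiesterase genes Pde3a, Pde5a and Pde2a differed by -0.14 (SE 0.08), -0.19 (SE 0.13) and 0.39 (SE 0.30). Genes that desensitise receptors had a median of 0.02 over 12 of 13 measured, with the G protein signalling regulators Rgs18 at -0.16 (SE 0.12) and Rgs16 at -0.12 (SE 0.10) and the modulator Gpsm3 at 0.13 (SE 0.12). Other platelet receptors, 21 of 28 measured, had 17 differences below 0 and a median of -0.11. Cd36, a scavenger receptor also made by red cell precursors, differed by 0.23 (SE 0.10). It was the 1 gene of the 129 whose groups did not overlap with the knockout higher, where 3.52% of all genes did so, and 9 of the 129 did not overlap with the knockout lower, beside 5.18% of all genes.

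**Figure D4:**
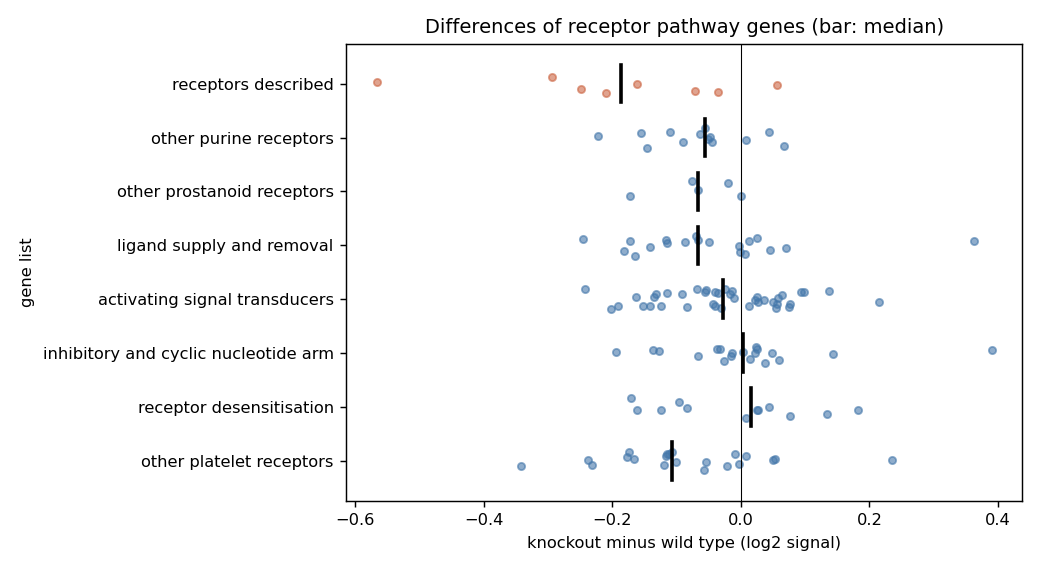
Difference in log2 signal, knockout minus wild type, of each measured receptor gene (red, top) and of the genes of 7 lists around them (blue); each point is 1 gene, placed at random within its row, and bars are medians. The median is -0.19 for the 8 receptors. These include F2rl3 and P2rx1, which were chosen by their lower signal in the knockout as well as by function. For the 6 receptors not chosen by their difference the median is -0.12. It is -0.11 for other platelet receptors and between -0.07 and 0.02 for the other 6 lists. The 6 receptors and the lists too were chosen with earlier results of these data known.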

How the data were processed

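The authors deposited log2 signals of 41345 probe sets on each array. The submitters' processing notes name Affymetrix Expression Console, version 1.4.1.46. How background was corrected and arrays were normalized was not given in the sources used here, and the log base was inferred from the highest value, 14.2, and detection calls were not used, so probe sets near background are not known. No counts underlie arrays, so their number, 3 per group, limits the precision.

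Groups came from the sample titles. The array annotation gave 23521 probe sets 1 symbol, 1814 several, and left 16010 unnamed; symbols were updated by gene ID through RefSeq, and each gene was read from its probe set of highest mean. Differences are knockout minus wild type, fitted without a block over all probe sets with limma 3.58.1 (R 4.3.3) and Benjamini-Hochberg adjustment; ± is the SD of 3 arrays. On simulated data the mean estimates lay near the planted changes, and most of the largest planted changes were called. Whether changes of the size seen here would be called is not given. Dim means the lowest 30% of mean signals.

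The members and lists were chosen with earlier results of these data known. Named were all members, the 3 genes of smallest p in each of the 7 lists around the receptors, and genes marked as named for their role, position or signal. Of the marker lists, only some of the 3 genes of smallest p and some of the defining markers were named. Promoters are RefSeq's, GRCm38.p6, and all 8 measured members matched.

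Replicate numbers recur in both groups. Deviations of same-numbered arrays correlated at 0.285, 0.116 and 0.115 over genes, and at 0.212, 0.0569 and 0.140 over all probe sets, so pairing rests on the gene-level values alone and enters as an alternative. Other alternatives were scaling, array weights, limma-trend, filters, a block for sex-linked signal and leaving out each array.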

Additional observations from a re-analysis of the deposited data

How the results depend on the processing

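The count of receptor genes below 0 stayed between 5 and 8 of 8 over 15 alternatives. Of the 128 single differences recomputed, 118 counted as unchanged, 4 moved further and 6 changed sign. F2rl3 and P2rx1 counted as unchanged when they kept their direction and moved by less than the SD. In the limma fits, tested genes needed only to keep their sign and stay short of the threshold. None came near it, so for them the label says little about size. Ptgir at -0.24 with the block for sex-linked signal counted as unchanged from -0.07. So did Tbxa2r at -0.03 relative to the megakaryocyte marker mean, from -0.16. The sign changed for P2ry12 without knockout replicate 2 (-0.0035) and between the arrays with Y-linked signal alone (-0.0717), for Ptgir without knockout replicate 3 (0.0903), for P2ry1 without wild-type replicate 3 (0.00725), and relative to the megakaryocyte marker mean for P2ry1 (0.0930) and Ptgir (0.0566). With 1 array left out, the difference spanned -0.0821 to 0.00725 for P2ry1, -0.0035 to 0.152 for P2ry12 and -0.197 to 0.0903 for Ptgir. Further moves were F2rl3 on that marker scale (-0.17), and P2rx1 (-1.15), P2ry1 (-0.15) and Ptgir (-0.53) between the arrays with Y-linked signal alone. The causes were not tested.

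Genes lower without overlap numbered 2 to 5 when an array was left out: 4 without knockout replicate 3 (F2rl2, F2rl3, P2rx1 and Tbxa2r) and 5 without wild-type replicate 2 (F2r, F2rl2, F2rl3, P2rx1 and Ptgir). Fewer arrays ease separation, and the share of all genes that separate with an array left out is not given here. Each of these counts includes F2rl3 and P2rx1, which were picked for reading lower, so nothing is read from them. With each array centred on its median there were 3 (F2r, F2rl3 and P2rx1), and on the marker scale there was 1 (P2rx1). The share of all genes that separate in these settings is not given either. Both counts include a gene picked for reading lower, so nothing is read from them. Called probe sets numbered 1 with each array centred, 1 with array weights and 0 to 2 with an array left out, the 2 without knockout replicate 3; no tested receptor gene was called under any alternative run (smallest limma adjusted p = 0.711, for F2r). With the replicate block 0 probe sets were called, and F2r and F2rl2 had limma adjusted p = 0.775 and 0.766, so pairing changed no call. Alternatives over several probe sets per gene were not run, since each measured gene had 1. All values rest on 3 arrays per group, and signal near background limits what dim genes can show.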
